A study of Homo sapiens with 11 samples.

Results

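The genes described here are 40 genes of mitosis and the mitotic spindle, chosen by name from textbook knowledge. Earlier results of these data were known when they were chosen. They were read on microarrays of PC3 cells, an established line from a bone metastasis of human prostate cancer. A gene was read from the probe sets that carry its symbol alone, and, where it had several, from the brightest by its mean over the arrays. All 40 were measured, among 33616 genes with a probe set of their own, and all 40 were among the 16808 genes in the upper part by mean level that were tested. The series holds 11 human Clariom D arrays with 1 array per condition. On 8 arrays, cells had received siRNAs against HOXA11-AS (siHOXA11-AS), HOXB13 (siHOXB13) or HOXA11 (siHOXA11), or a control siRNA (siNC), and were collected at 48 h or 24 h. The labels state that siRNAs to different sequences of a target were mixed. The other 3 arrays, all of 48 h, were titled shIBSP(1), shIBSP(2) and shNC. The titles say sh and another field of the shNC label says siRNA, so the kind of reagent on these 3 arrays is not settled. All cells were of the same line, which is androgen independent, and nothing in the sources says whether the arrays came from separate cultures.

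Cells enter mitosis when CDK1 bound to cyclin B phosphorylates its substrates, with PLK1 and the Aurora kinases acting beside it. Kinetochores then attach to spindle microtubules while the spindle assembly checkpoint holds back the anaphase-promoting complex (APC/C) through CDC20, and kinesins and RhoA regulators divide the cell. Most of these genes are transcribed in G2 and mitosis and are low in resting cells, so in a population their mRNA follows the share of dividing cells, and in bulk RNA fewer dividing cells and less RNA per cell cannot be told apart. Their promoters are known for CCAAT boxes, which NF-Y binds, and for the cell cycle homology element, which the DREAM and MYB-MuvB complexes read.

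The promoters were set out first because the genes share more than their function. The RefSeq table (GRCh38.p14) held a window of 250 bases before to 50 bases after the transcription start for 33 of the 40 genes. AURKA, BIRC5, BUB3, FOXM1, TPX2, TTK and UBE2C were not in it. CCAAT, or ATTGG on the other strand, was present in 26 of the 33 windows (78.8%), against 35.7% of the 27305 genes in the table. TTTGAA, or TTCAAA on the other strand, the common form of the cell cycle homology element, was present in 24 of the 33 (72.7%), against 15.4% of all. TTCGAA, which reads the same on both strands, was in 2 of the 33 (6.06%), against 1.45% of all. Both CCAAT and TTTGAA were present in 20 of the 33 (60.6%), against 6.08% of all, and 17 of the 33 (51.5%) held at least 2 CCAAT matches, against 11.3% of all. Overlapping matches were counted apart, and a match is a run of letters and not a tested site.

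6 promoters are printed as examples, chosen after the values were seen. CCNA2, KIF23, ECT2 and MKI67 are among the genes with wide differences below, PLK1 was highest with siHOXA11 at 48 h, and CCNB2 holds 4 CCAAT matches beside TTTGAA. Each is the 200 bases that end just before the start, 5′ to 3′ on the strand of the gene, with matches to CCAAT and to TTTGAA, on either strand, in capitals. CCNA2 lies at chr4:121823884-121824083 on the minus strand and MKI67 at chr10:128126424-128126623 on the minus strand. On the plus strand are CCNB2 at chr15:59104946-59105145, PLK1 at chr16:23678689-23678888, KIF23 at chr15:69414149-69414348 and ECT2 at chr3:172750526-172750725. In ECT2 the last CCAAT match runs past the start, so only its first letters are shown.
CCNA2: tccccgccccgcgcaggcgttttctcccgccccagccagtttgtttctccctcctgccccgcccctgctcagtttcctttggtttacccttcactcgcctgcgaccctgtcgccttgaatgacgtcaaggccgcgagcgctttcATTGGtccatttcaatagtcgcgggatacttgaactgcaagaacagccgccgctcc
CCNB2: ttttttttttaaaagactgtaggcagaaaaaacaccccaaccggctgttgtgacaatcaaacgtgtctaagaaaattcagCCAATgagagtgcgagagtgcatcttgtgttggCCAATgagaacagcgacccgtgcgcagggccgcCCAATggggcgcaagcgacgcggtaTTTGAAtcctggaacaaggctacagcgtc
PLK1: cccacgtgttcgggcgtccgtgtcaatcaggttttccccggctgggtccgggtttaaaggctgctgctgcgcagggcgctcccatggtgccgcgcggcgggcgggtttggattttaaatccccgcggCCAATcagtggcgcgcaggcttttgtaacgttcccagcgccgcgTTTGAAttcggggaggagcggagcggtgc
KIF23: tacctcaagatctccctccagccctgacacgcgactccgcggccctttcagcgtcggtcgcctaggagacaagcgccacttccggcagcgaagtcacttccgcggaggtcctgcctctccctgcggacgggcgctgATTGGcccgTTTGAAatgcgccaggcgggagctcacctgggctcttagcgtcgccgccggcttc
ECT2: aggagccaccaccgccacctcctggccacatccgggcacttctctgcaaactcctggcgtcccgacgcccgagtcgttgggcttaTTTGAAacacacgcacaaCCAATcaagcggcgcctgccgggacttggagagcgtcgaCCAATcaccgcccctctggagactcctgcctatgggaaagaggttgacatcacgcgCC
MKI67: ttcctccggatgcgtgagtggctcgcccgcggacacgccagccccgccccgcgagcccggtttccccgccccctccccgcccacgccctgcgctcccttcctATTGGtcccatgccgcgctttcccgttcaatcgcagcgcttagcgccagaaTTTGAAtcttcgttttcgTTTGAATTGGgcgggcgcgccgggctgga
CCNB2 holds 3 CCAAT matches in the printed bases and TTTGAA at 29 bases before the start, and PLK1 has its TTTGAA at the same distance. MKI67 holds TTTGAA at 47 and at 29 bases before the start, and the second runs into a CCAAT match on the other strand. CCNA2 has a single CCAAT match, 56 bases before the start, and none of the other 2 motifs.

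Values are log2 of the deposited intensities. On each array 61 to 122 probe sets lay within 0.001% of the array's maximum, which was between 914964 and 999965. The scale thus has a ceiling and was transformed in a way the sources do not state, so a log2 difference here is a difference of deposited values and may not equal the log2 ratio of transcripts. The 40 genes lay between 7.08 and 17.49, under that ceiling. The median over the 16808 genes was between 7.19 and 7.58 on the 11 arrays and lowest on the siHOXA11 array of 48 h, which also had the lowest 90th percentile, 12.08, against 12.25 to 12.62 on the other arrays. HOXB13 goes against the labels at 48 h, since it was 10.36 on the array labelled siHOXB13 and 8.52 on the array labelled siNC, while at 24 h it was 8.09 with siHOXB13 and 10.10 with siNC. It was 11.20 and 10.02 with siHOXA11-AS and 11.12 and 10.53 with siHOXA11 at 48 h and 24 h, and 9.91, 9.91 and 9.75 on the shIBSP(1), shIBSP(2) and shNC arrays. Both doubted arrays are named by their labels below. HOXA11-AS was 6.40 and 6.01 with siHOXA11-AS at 48 h and 24 h, against 6.68 and 6.30 with siNC, and it lay between 6.25 and 7.38 on the other arrays. IBSP was 3.84 and 3.17 with shIBSP(1) and shIBSP(2), against 3.50 with shNC, and 3.38 to 4.40 on the siRNA arrays, below the level required for testing. HOXA11 was not analysed here. The epithelial genes KRT8, EPCAM and KRT19 averaged 16.29, 16.23 and 16.17. The prostate genes KLK3 and KLK2, which PC3 cells make little of, averaged 6.11 and 5.01, and the medians of 4 blood and stromal markers were between 5.54 and 6.45 per array, with COL1A1, a collagen of fibroblasts, at a mean of 8.48.

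The median of the 40 genes was lowest on the siHOXA11 array of 48 h, at 10.90, and next lowest on the siHOXA11-AS array of 48 h, at 11.65. The other 48 h arrays were at 11.92 (labelled siHOXB13), 11.92 (labelled siNC), 11.91 (shIBSP(1)), 11.90 (shIBSP(2)) and 11.74 (shNC). The 24 h arrays were at 12.06 (siHOXA11-AS), 12.08 (siHOXB13), 11.83 (siHOXA11) and 12.01 (siNC). When each array was centred on its median the 2 lowest arrays were the same, at 3.70 and 4.12, and the others lay between 4.16 and 4.77.

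**Figure D1:**
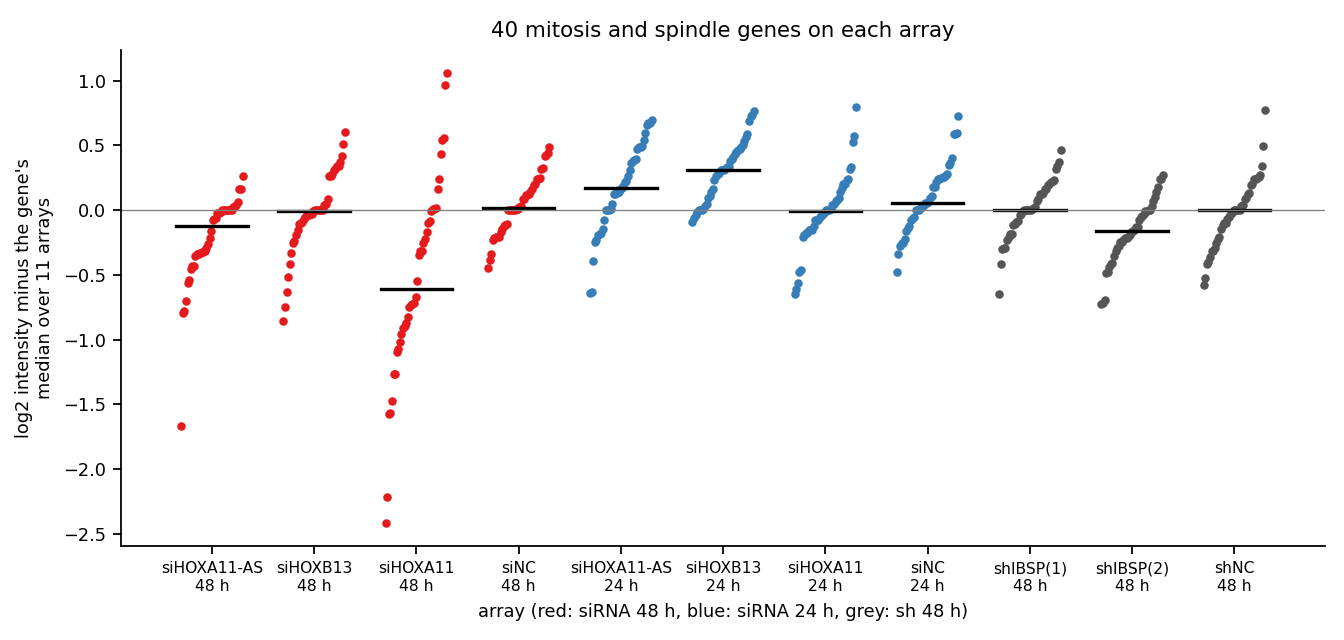
Level of each of the 40 genes on each of the 11 arrays, as log2 intensity minus that gene's median over the arrays. Points are genes, sorted within an array, and bars are medians over the genes. The siHOXA11 array of 48 h has the widest spread, with BUB3 and ECT2 lowest and CDCA8 and CENPA highest, and CCNA2 is the lowest point on the siHOXA11-AS array of 48 h.

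The genes differed in how much they moved over the arrays. ECT2, a RhoA exchange factor of cytokinesis, had the widest range, 3.02 on the log2 scale, and NUSAP1, which bundles spindle microtubules, the narrowest, 0.65. Without the siHOXA11 array of 48 h, CCNA2 had the widest range at 2.15 and BUB1B, a kinase-like protein of the checkpoint, the narrowest at 0.55. Across the arrays, after centring, the median Pearson r over the 780 pairs of genes was 0.30 on 11 arrays and 0.36 on 10 arrays without the siHOXA11 array of 48 h, with 76.4% and 84.2% of pairs above 0. All pairs share the same arrays, so these values are a description.

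Some genes followed the rest of the group and others did not. NDC80, an outer kinetochore protein, BUB3, which docks checkpoint proteins at kinetochores, and MKI67, the proliferation antigen Ki-67, had r of 0.82, 0.82 and 0.80 with the median of the other genes over 11 arrays. BUB1B, CENPA, PTTG1, CDCA8 and PLK1 had r of −0.56, −0.48, −0.40, −0.35 and −0.27. Without the siHOXA11 array of 48 h these became 0.02, 0.34, 0.21, 0.70 and 0.60, so the negative values rest on that array. CCNA2 had r of 0.55 over 11 arrays and 0.85 without it. For TTK, KIF2C and ECT2, r was 0.65, 0.34 and 0.51 over 11 arrays and −0.02, −0.14 and 0.11 without it.

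In the comparison of the collection times most of the genes had the same sign. From the additive fit of treatment and time on the 8 siRNA arrays, 34 of the 40 genes were lower at 48 h than at 24 h, with a median log2 difference of −0.35, against 0.01 over all genes tested. None passed the test. limma called 0 of 40 at an adjusted p under 0.05 and 0% of all genes. At an unadjusted p under 0.05 it found 3 of the 40 lower, with 3.29% of all genes lower, and 0 of the 40 higher, with 3.73% of all genes higher. In this balanced design the estimate for time does not use the treatment labels, so a swap of both doubted arrays would leave it as it is.

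Within each transfection, where 1 array of 48 h was set against 1 array of 24 h, the median difference of the 40 genes was −0.39 with siHOXA11-AS, −0.31 with siHOXB13, −0.56 with siHOXA11 and −0.04 with siNC. Over the 8006 tested genes whose mean level lay in the range of the 40, the medians were 0.09, −0.18, −0.37 and 0.18. The median of the 40 lay below that of the genes of like level in 4 of 4 transfections. The siNC and siHOXB13 differences rest on the doubted labels. Of the genes of like level, 41.4% (siHOXA11-AS), 62.5% (siHOXB13), 69.7% (siHOXA11) and 33.3% (siNC) were lower at 48 h. Of the 40, 87.5%, 85%, 77.5% and 57.5% were, in that order. As labelled, 12 genes were lower at 48 h in all 4 transfections, 21 in 3, 5 in 2 and 2 in 1. In the 2 transfections with no doubted array, siHOXA11-AS and siHOXA11, 27 of the 40 were lower in both. The same counts over genes of like level are not given here. The 12 were CCNA2, CCNB1, CDK1, FOXM1, BUB3, AURKB, KIF23, CENPE, NDC80, ANLN, NUSAP1 and DLGAP5. CDC25C, a phosphatase that activates CDK1, and KIF2C, a microtubule-depolymerizing kinesin, were the 2 that were lower in only 1 of the 4.

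**Figure D2:**
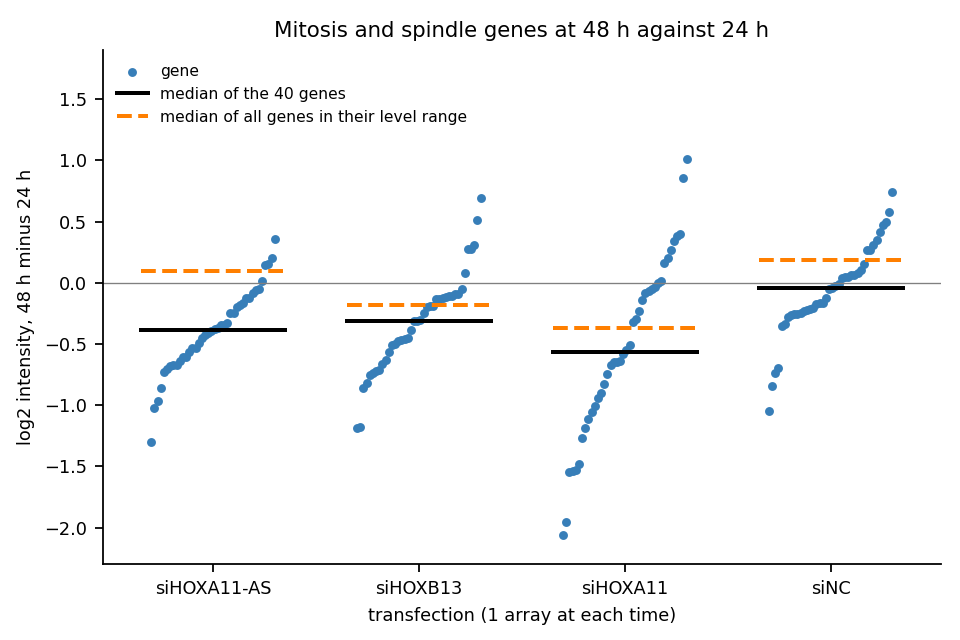
Difference of 48 h minus 24 h for the 40 genes in each transfection, in log2 intensity, with 1 array at each time. Points are genes, black bars their medians (−0.39, −0.31, −0.56 and −0.04) and dashed bars the medians of all tested genes in their level range (0.09, −0.18, −0.37 and 0.18), each black bar lying below its dashed bar.

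The 3 genes with an unadjusted p under 0.05 for time were BUB3, ANLN and DLGAP5. DLGAP5, a spindle protein that stabilizes kinetochore fibres, was 14.76 (siHOXA11-AS), 14.99 (siHOXB13), 14.70 (siHOXA11) and 15.03 (siNC) at 48 h, against 15.49 (siHOXA11-AS), 15.46 (siHOXB13), 15.34 (siHOXA11) and 15.38 (siNC) at 24 h. The 48 h and 24 h values did not overlap. Its log2 difference was −0.55 (SE 0.21, limma adjusted p = 0.70). ANLN, the cytokinetic scaffold anillin, was 15.08 (siHOXA11-AS), 15.64 (siHOXB13), 14.03 (siHOXA11) and 15.19 (siNC) at 48 h, against 15.79 (siHOXA11-AS), 15.77 (siHOXB13), 15.30 (siHOXA11) and 15.89 (siNC) at 24 h. These values overlapped, and the difference was −0.70 (SE 0.24, limma adjusted p = 0.70). BUB3 differed by −0.91 (SE 0.31, limma adjusted p = 0.70), with the siHOXA11 arrays at 12.25 at 48 h and 14.31 at 24 h. Without the siHOXA11 array of 48 h the median difference of the 40 was −0.26, against 0.07 over all genes, and 37 were lower. In that fit 0 of the 40 had an unadjusted p under 0.05, beside 261 genes lower and 732 higher of 16808.

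Other cell cycle lists had negative medians for time too. Of 25 genes of the G1/S transition and DNA replication, 24 were lower at 48 h (median −0.46) and 6 had an unadjusted p under 0.05, and of 61 further mitosis genes 48 were lower (median −0.23) with 4 at an unadjusted p under 0.05. Among the G1/S genes, RRM2, a subunit of ribonucleotide reductase, was 14.95 with siHOXA11-AS at 48 h, against 15.84 at 24 h, and 14.96 with siNC at 48 h, against 15.20 at 24 h. The 15 subunits and partners of the DREAM and MYB-MuvB complexes had a median of 0.04, and 7 were lower. The 9 CDK inhibitors and inhibitory kinases had a median of −0.09, and 5 were lower. No gene of these lists had an adjusted p under 0.05.

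With siHOXA11 at 48 h the genes spread most widely. Relative to the array labelled siNC at 48 h, 31 of the 40 were lower and 9 higher, with a median log2 difference of −0.65. 10 of the 40 were at least 2-fold lower and 13.2% of all genes tested were, while 1 of the 40 was at least 2-fold higher and 3.9% of all were. The array was low over bright genes in general. Of the 8006 tested genes in the level range of the 40, 21.6% were at least 2-fold lower, and of the 3189 in the interquartile part of that range, 25.3% were, against 25% of the 40. The medians of these 2 sets were −0.35 and −0.44. In them 68.3% and 70.8% of the genes were lower, against 77.5% of the 40. When the control was the siNC array of 24 h instead, 11 of the 40 were at least 2-fold lower and 2 higher by that factor.

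BUB3 was 12.25 with siHOXA11 at 48 h and 14.89 on the array labelled siNC, a difference of −2.64. Its other 9 values lay between 14.31 and 15.15. The lowest of these was that of siHOXA11 at 24 h, close to 14.33 with shIBSP(2) and 14.35 with shNC. ECT2 was 10.16 with siHOXA11 at 48 h and 12.19 on the array labelled siNC, a difference of −2.03. With siHOXA11 at 24 h it was 12.11, close to the value on the array labelled siNC. INCENP, the scaffold of the chromosomal passenger complex with AURKB, was 7.71 with siHOXA11 at 48 h and 9.53 on the array labelled siNC, a difference of −1.81, while with siHOXA11 at 24 h it was 9.25. Relative to the array labelled siHOXB13 at 48 h, also doubted, BUB3, ECT2 and INCENP differed by −2.14, −3.02 and −0.94. These 3 genes were the farthest below the array labelled siNC.

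The other 7 that were at least 2-fold lower were KIF23, the kinesin of centralspindlin, with a difference of −1.61, TTK, the checkpoint kinase MPS1, with −1.60, KIF4A, a chromosome-bound kinesin, with −1.46, MKI67 with −1.46, CCNB2 with −1.24, KIF2C with −1.21 and ANLN with −1.16. CCNB1, at −0.98, was the gene just short of 2-fold. Relative to the array labelled siHOXB13 at 48 h, KIF23, TTK, KIF4A and MKI67 differed by −1.24, −1.57, −1.07 and −0.98. CCNB2, KIF2C, ANLN and CCNB1 differed from it by −0.86, −1.40, −1.61 and −1.32. By role, relative to the array labelled siNC, the 6 kinesins were all lower with a median of −1.02. The 5 checkpoint genes had a median of −0.79 with 4 lower. The medians of the remaining roles were −0.73 for the 7 cyclins, CDK1 and entry regulators, −0.65 for TOP2A and MKI67, −0.57 for the 3 genes of the APC/C and its substrates, −0.53 for the 6 of spindle microtubules and cytokinesis, −0.32 for the 5 of the centromere and kinetochore and −0.22 for the 6 of the Aurora kinases and the passenger complex.

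Some members of the same complexes were higher on that array. CENPA, the histone H3 variant of centromeres, was 8.46 with siHOXA11 at 48 h and 7.25 on the array labelled siNC, a difference of 1.21, and was between 7.08 and 7.72 on the other arrays. PLK1 was 17.49 with siHOXA11 and 16.73 on the array labelled siNC, a difference of 0.76. CDCA8, the borealin subunit of the passenger complex, was 10.41 with siHOXA11 and 9.69 on the array labelled siNC, a difference of 0.71. PTTG1, the separase inhibitor securin, differed by 0.64 and BUB1B by 0.54. All 5 were at their highest of the 11 arrays there, which makes 5 of the 40 genes, beside 12.6% of all genes tested. With each array centred on its median, 6 of the 40 and 23.1% of all were highest on that array. With quantile normalization these were 7 of the 40 and 20.9%. None of the 3 counts exceeded the share over all genes. AURKB, BIRC5 and INCENP, which work in one complex with CDCA8, differed by 0.22, −0.22 and −1.81.

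Over all 11 arrays, 19 of the 40 genes (47.5%) had their lowest value on the siHOXA11 array of 48 h, beside 25.8% of all genes tested, 35.9% of those in the level range of the 40 and 39.2% of those in its interquartile part. With each array centred on its median these were 16 of the 40 (40%), 17.0%, 26.3% and 29.6%. With quantile normalization they were 14 of the 40 (35%), 18.4%, 22.7% and 23.7%.

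**Figure D3:**
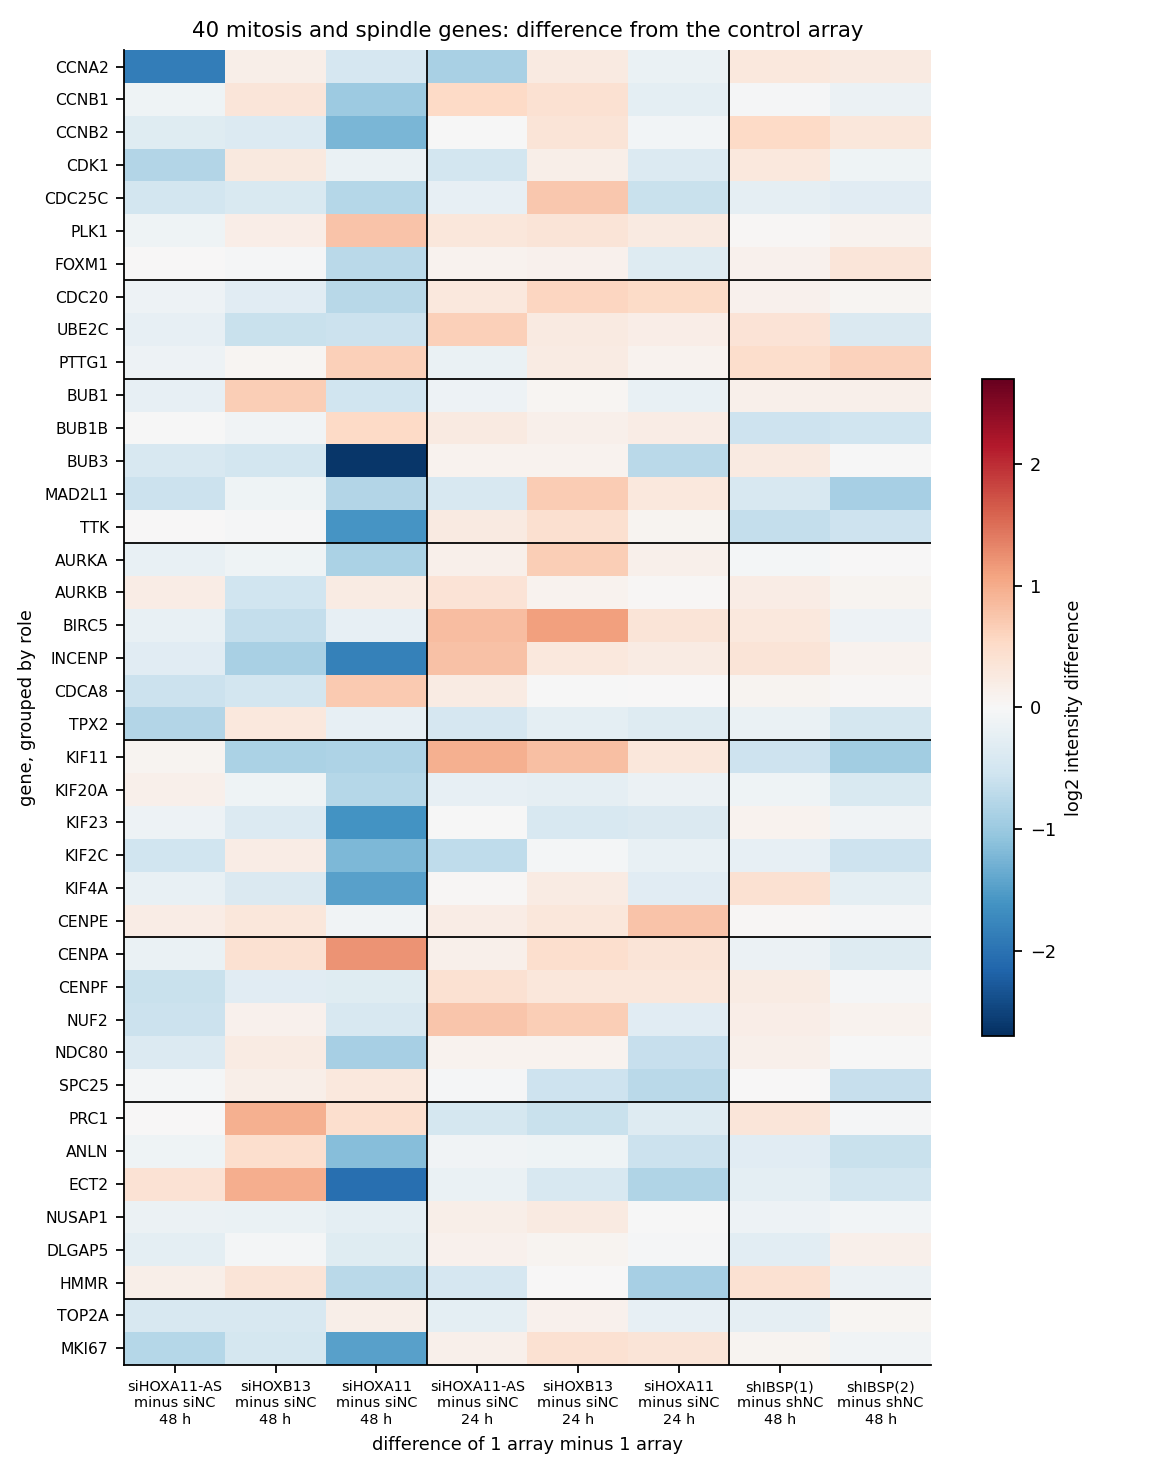
Differences of the 40 genes from their control array in log2 intensity, each from 1 array minus 1 array. Rows are genes grouped by role between lines, in the order of entry kinases, APC/C, checkpoint, Aurora and passenger complex, kinesins, kinetochore, cytokinesis and proliferation marks. The column of siHOXA11 at 48 h holds the darkest blue cell, BUB3 at −2.64, and the darkest cell in the column of siHOXA11-AS at 48 h is CCNA2 at −1.87.

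At 24 h the genes were less displaced with siHOXA11. 23 of the 40 were lower than with siNC and 17 higher, the median difference was −0.11, and the median over genes in the same level range was 0.21. 0 of the 40 were at least 2-fold lower or at least 2-fold higher at 24 h, with 0.976% and 3.69% of all genes. HMMR, a microtubule-binding protein of the spindle, was 9.15 and 9.24 with siHOXA11 at 48 h and 24 h, against 9.88 and 10.14 with siNC, and both siHOXA11 values were the lowest of the 11 arrays. NDC80 was 9.16 and 9.67 with siHOXA11 at 48 h and 24 h, against 10.06 and 10.29 with siNC, and its siHOXA11 values were likewise the lowest, with 9.70 on the siHOXA11-AS array of 48 h close to the second. 20 of the 40 genes were lower with siHOXA11 at both times, 6 were higher at both and 14 had opposite signs.

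Over both times, limma gave the 40 genes a median log2 difference of −0.30 with siHOXA11 relative to siNC, against 0.00 over all genes, and 31 were lower. It called 0 of 40 at an adjusted p under 0.05 and 0% of all genes. At an unadjusted p under 0.05, 7 of the 40 were lower, with 1.84% of all genes lower, and 0 were higher, with 1.83% of all genes higher. The 7 were BUB3 at −1.69 (SE 0.44), ECT2 at −1.42 (SE 0.55), KIF23 at −1.003 (SE 0.38), KIF4A at −0.88 (SE 0.36), ANLN at −0.87 (SE 0.35), HMMR at −0.82 (SE 0.31) and NDC80 at −0.76 (SE 0.31), each with an adjusted p of 0.98. Without the siHOXA11 array of 48 h the median was −0.14, against 0.12 over all genes. With both doubted arrays left out the median was −0.05, against 0.08 over all genes. The methods' t-test, with the 2 times as the values of a treatment, found 2 of the 40 lower at an unadjusted p under 0.05. Of 16808 genes it found 219 lower. It found 0 of the 40 higher, beside 367 of all genes, and called 0 after Benjamini-Hochberg adjustment. The G1/S genes had a median of −0.48 in the same fit, with 18 of 25 lower, and the further mitosis genes −0.26, with 41 of 61 lower. The 5 epithelial markers, which are not cell cycle genes, had a median of −0.38 with all 5 lower.

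With siHOXA11-AS, the knockdown of the lncRNA whose effect on growth of these cells the study examined, CCNA2 was the gene farthest below its control. Cyclin A2 activates CDK2 in S phase and CDK1 at mitotic entry. CCNA2 was 11.82 with siHOXA11-AS at 48 h and 13.69 on the array labelled siNC, a difference of −1.87, and 12.85 with siHOXA11-AS at 24 h and 13.73 with siNC, a difference of −0.88. The other 9 arrays lay between 13.20 and 13.97, so both siHOXA11-AS values were the lowest of the 11. limma gave a log2 difference of −1.38 (SE 0.34, adjusted p = 1.00) in the siRNA arrays and an adjusted p of 0.50 in the fit of all 11. When each array was centred, the differences were −1.996 at 48 h and −1.03 at 24 h. With the siNC array of 24 h as the control of both, the difference at 48 h was −1.91.

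CDK1, the kinase of mitotic entry, and a spindle gene also had their lowest values with siHOXA11-AS at 48 h. CDK1 was 13.63 and 14.16 with siHOXA11-AS at 48 h and 24 h, against 14.41 and 14.65 with siNC, and both siHOXA11-AS values were the lowest of the 11 arrays. TPX2, which activates AURKA and nucleates spindle microtubules, was 13.59 and 14.19 with siHOXA11-AS at 48 h and 24 h, against 14.38 and 14.66 with siNC, and its 24 h value overlapped those of siHOXA11 at 48 h and shIBSP(2). limma gave CDK1 a difference of −0.64 (SE 0.30, adjusted p = 1.00) and TPX2 one of −0.63 (SE 0.32, adjusted p = 1.00). CCNB1, the partner of CDK1 in mitosis, was 11.93 and 12.61 with siHOXA11-AS at 48 h and 24 h, against 12.04 and 12.07 with siNC.

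**Figure D4:**
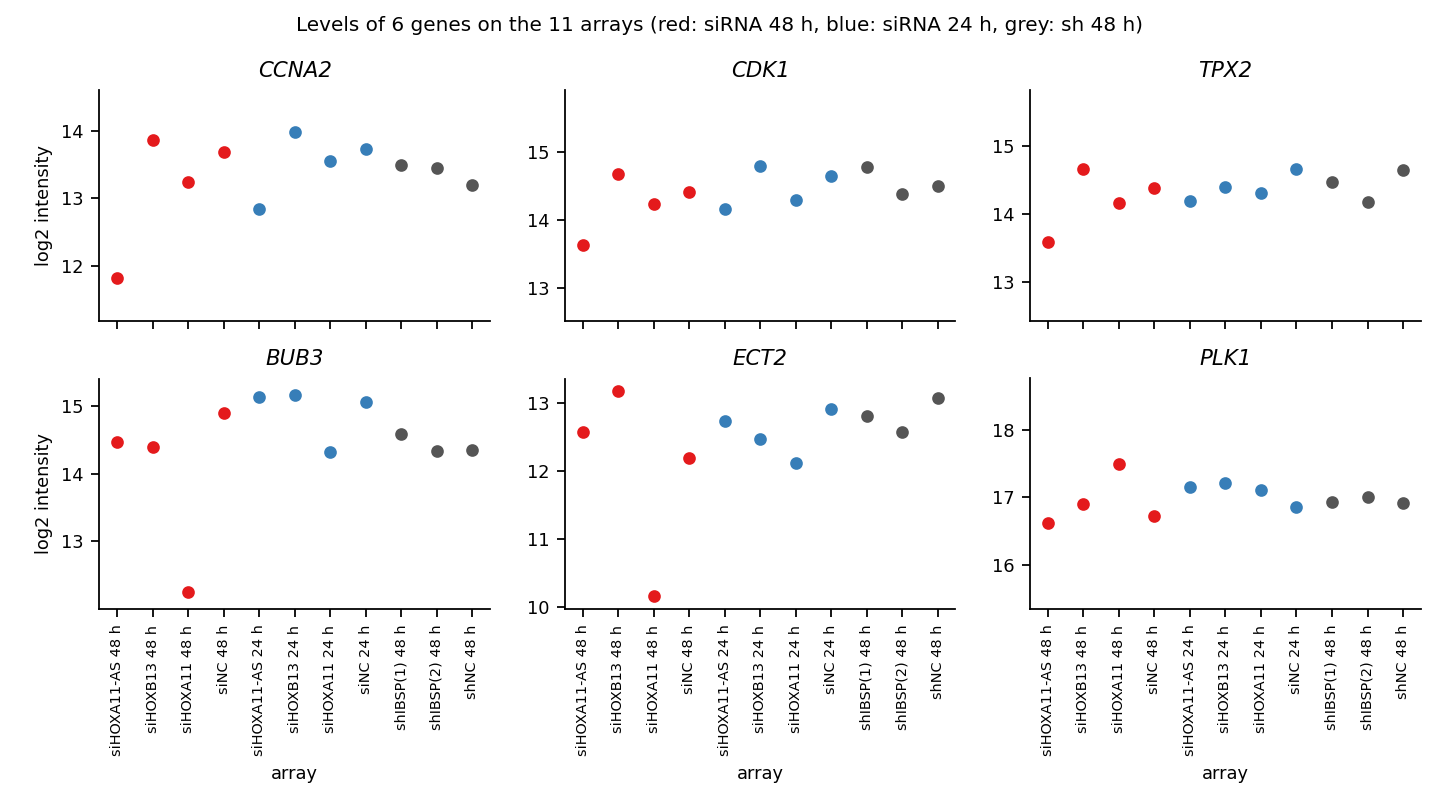
Log2 intensity of CCNA2, CDK1, TPX2, BUB3, ECT2 and PLK1 on each of the 11 arrays, 1 point per array, with the same span on every vertical axis. CCNA2 is lowest on the arrays of siHOXA11-AS, at 11.82 and 12.85, and BUB3 and ECT2 on the siHOXA11 array of 48 h, at 12.25 and 10.16, where PLK1 is highest, at 17.49.

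Over the group, the median difference of siHOXA11-AS from siNC was −0.19 at 48 h, with 31 of 40 lower, and 0.09 at 24 h, with 17 of 40 lower. The medians over genes in the same level range were 0.10 and 0.21. With centred arrays the medians of the 40 were −0.32 at 48 h and −0.06 at 24 h, and with quantile normalization −0.30 and −0.10, so the sign at 24 h turned under both. At 48 h 1 of the 40, CCNA2, was at least 2-fold lower, with 2.05% of all genes, and 0 were at least 2-fold higher, with 3.68% of all. With the siNC array of 24 h as control, 4 were at least 2-fold lower at 48 h. These were CCNA2 at −1.91, TPX2 at −1.07, PRC1 at −1.03 and CDK1 at −1.03. Relative to the array labelled siHOXB13 at 48 h, these 4 differed by −2.03, −1.08, −0.95 and −1.04, in that order. At 24 h 0 of the 40 were at least 2-fold lower or higher, with 1.8% and 3.86% of all genes. 8 of the 40 (20%) had their lowest of 11 values on the siHOXA11-AS array of 48 h, beside 6.18% of all genes and 4.82% of those in the same level range. The 8 were CCNA2, CDK1, PLK1, CDCA8, TPX2, CENPA, CENPF and NUF2. CENPF and NUF2, both of the kinetochore, were 12.15 and 8.51 there, against 12.76 and 9.09 on the array labelled siNC, and 13.11 and 9.81 with siHOXA11-AS at 24 h.

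limma over both times gave a median of −0.08 with siHOXA11-AS, against 0.09 over all genes, and 26 of 40 were lower. It called 0 of 40 at an adjusted p under 0.05 and 0% of all genes. At an unadjusted p under 0.05, 1 of the 40 was lower (CCNA2), with 1.18% of all genes lower, and 0 were higher, with 2.82% of all genes higher. With both doubted arrays left out the median was 0.11, against 0.18 over all genes. Without the array labelled siNC at 48 h alone the median was 0.12, against 0.18 over all genes. The methods' t-test found 2 of the 40 lower at an unadjusted p under 0.05, beside 337 of 16808 genes. It found 0 of the 40 higher, beside 636 of 16808 genes, and called 0 after adjustment. The siHOXA11-AS array of 48 h also carried high interferon-stimulated genes. The 6 genes of that list had a median of 12.65 there, against 8.18 on the array labelled siNC at 48 h and 7.98 to 9.58 on the other siRNA arrays, and of 16.32, 15.20 and 15.02 on the shNC, shIBSP(1) and shIBSP(2) arrays. MX1, an interferon-induced GTPase, was 16.52 there, against 10.00 on the array labelled siNC at 48 h and 13.01 with siNC at 24 h. The part of these genes in the levels of the 40 was not tested. On the shNC array, where they were highest, CCNA2 was 13.20, the lowest value outside siHOXA11-AS. CDK1 and TPX2 were 14.50 and 14.65 there, above their medians over the arrays. With shIBSP(1) and shIBSP(2) CCNA2 was 13.49 and 13.44. With siHOXA11 at 48 h, where the median of the interferon-stimulated genes was lowest, CCNA2 was 13.24.

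With siHOXB13 the medians of the 40 lay close to those of genes of like level. At 24 h 31 of the 40 were higher than with siNC, with a median difference of 0.23, and the genes in the same level range had a median of 0.28. With centred arrays the median of the 40 was 0.01, and with quantile normalization −0.09. As deposited, 1 of the 40 was at least 2-fold higher, with 4.58% of all genes, and 0 were at least 2-fold lower, with 1.09% of all. The 1 gene was BIRC5, survivin, at 10.90 with siHOXB13 and 9.79 with siNC, and 0 were at least 2-fold higher under either scaling. On the arrays of 48 h, whose labels are in doubt, the median of siHOXB13 minus siNC was −0.07, with 23 of 40 lower, against −0.10 over genes in the same level range. It was −0.08 with centred arrays and 0.00 with quantile normalization. None of the 40 (0) reached 2-fold higher or 2-fold lower, with 5.22% and 4.62% of all genes. BIRC5 was 9.72 on the array labelled siHOXB13 and 10.37 on the array labelled siNC. ECT2 and PRC1, a crosslinker of midzone microtubules, had the largest differences there, 0.99 and 0.96, and differed by −0.44 and −0.60 at 24 h. 26 of the 40 had opposite signs at the times.

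limma over both times gave siHOXB13 a median of 0.10, against 0.08 over all genes. It called 0 of 40 at an adjusted p under 0.05 and 0% of all genes. At an unadjusted p under 0.05 it found 0 of the 40 higher, with 0.857% of all genes, and 0 lower, with 0.155% of all. The methods' t-test found 2 of the 40 higher at an unadjusted p under 0.05, beside 328 of 16808 genes. It found 0 of the 40 lower, beside 117 of 16808 genes, and called 0 after adjustment. All of these values take in the 48 h arrays whose labels are in doubt. If those labels are exchanged, the 48 h difference enters with the wrong sign. In the limma fit with both doubted arrays left out, the median was 0.23, against 0.18 over all genes.

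The median difference was 0.07 with shIBSP(1), with 24 of 40 higher, and −0.09 with shIBSP(2), with 26 of 40 lower, while genes in the same level range had medians of −0.02 and −0.21. With centred arrays the medians of the 40 were 0.11 and 0.12, and with quantile normalization 0.15 and 0.16, so the sign with shIBSP(2) turned under both. 0 of the 40 were at least 2-fold higher or lower with shIBSP(1), with 0.506% and 1.6% of all genes, and 0 were with shIBSP(2), with 0.988% and 4.87% of all. KIF11, the kinesin that pushes the spindle poles apart, was 10.97 with shIBSP(1) and 10.59 with shIBSP(2), against 11.52 with shNC. TTK was 12.53 and 12.61 with shIBSP(1) and shIBSP(2), against 13.17 with shNC. The shNC values of KIF11 and TTK were their highest of the 11 arrays, over which their medians were 10.7 and 12.8. BUB1B was 12.21 and 12.22 with shIBSP(1) and shIBSP(2), against 12.76 with shNC. MAD2L1, a checkpoint protein that inhibits CDC20, was 8.64 and 8.18 with shIBSP(1) and shIBSP(2), against 9.08 with shNC. PTTG1 was 11.89 and 12.04 with them, against 11.41 with shNC. The limma fit of all 11 arrays, with the 2 shIBSP arrays as 1 group, gave a median of 0.00, against −0.08 over all genes, and called 0 of 40 at an adjusted p under 0.05 and 0% of all genes. At an unadjusted p under 0.05 it found 0 of the 40 higher, with 0.464% of all genes, and 0 lower, with 2.08% of all.

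The regulators of these promoters were read too. FOXM1, a transcription factor of G2 genes, had values at 48 h and 24 h of 13.64 and 13.88 (siHOXA11-AS), 13.58 and 13.90 (siHOXB13) and 12.89 and 13.44 (siHOXA11), against 13.62 and 13.79 with siNC. MYBL2, the MYB of the MYB-MuvB complex, had 11.78 and 12.50 (siHOXA11-AS), 11.85 and 12.75 (siHOXB13) and 11.47 and 12.23 (siHOXA11), against 12.31 and 12.39 with siNC, and it was 10.93, 10.89 and 11.04 on the shIBSP(1), shIBSP(2) and shNC arrays. The 48 h value of MYBL2 was below the 24 h value in 4 of 4 transfections. TFDP1 and RBL1, the 2 brighter genes of the DREAM and MYB-MuvB list, were higher at 48 h with siNC, by 0.78 and 0.53. With siHOXA11 TFDP1 was higher by 0.38, and the other time differences of TFDP1 and RBL1 were negative. Of the 15 genes of that list 8 were higher at 48 h in the fit. Among the 8 genes at least 2-fold lower with siHOXA11 at 48 h that had a promoter window, 6 held CCAAT and 7 held TTTGAA, and of the 25 others 20 and 17 did.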

How the data were processed

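RNA of PC3 cells was read on 11 Clariom D arrays, 1 per condition. The deposited values are linear intensities per probe set, which the authors made with Affymetrix Expression Console per the submitters' processing notes. The version, summary method, normalization and build it used, not given in the sources used here, stay unknown. The design had assumed log2 values, so log2 was taken here. Of 138745 probe sets, 36176 carried 1 symbol in the platform annotation, 1119 several and 101450 none, and 33616 genes had a probe set of their own. The 50% with the highest mean level, from 4.90 on the log2 scale, were tested. ANLN and KIF2C had a second probe set, which was dimmer and was not used.

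limma 3.58.1 in R 4.3.3 fitted treatment and time to the 8 siRNA arrays (3 residual degrees of freedom), and all 11 arrays for shIBSP (4 degrees). No condition had a second array, so the error is the disagreement of an effect between the times, or, for shIBSP, also between its 2 arrays. p-values were Benjamini-Hochberg adjusted over 16808 genes at 0.05 and measure the spread between these arrays, which may be technical. Differences at 1 time set 1 array against 1 array, with no test, and are counted at 2-fold. The number of arrays limits the precision. The fit was tested on simulated data.

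All 40 genes may be named, and from each other list the 3 genes with the highest mean level. The genes and lists were chosen with earlier results of these data known. Alternatives were centring, quantile normalization, no filter, mean of probe sets, an intensity trend, other arrays or terms in the fit, the methods' t-test and leaving out each array. The comparison with genes of like level, the counts of lowest arrays, the count over transfections without a doubted array and the use of any promoter window were chosen after seeing the data. Python 3.11.15, numpy 2.4.6, pandas 2.3.3 and matplotlib 3.10.9 were used. All columns of values were used.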

Additional observations from a re-analysis of the deposited data

Results flagged for a closer look

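The median difference of the 40 genes between siHOXA11-AS and siNC was −0.19 at 48 h and 0.0878 at 24 h on the log2 scale as deposited, in opposite directions. With centred arrays it was −0.32 at 48 h and −0.06 at 24 h, and with quantile normalization −0.30 and −0.10, so the directions were then the same. Between siHOXB13 and siNC it was −0.0695 at 48 h, on the arrays whose labels are in doubt, and 0.23 at 24 h. With centred arrays it was −0.08 and 0.01, and with quantile normalization 0.00 and −0.09. Each value rests on 1 array against 1 array, and the difference between the times was not tested.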

How the results depend on the processing

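limma called 0 of the 40 genes in each of the 5 comparisons and under every alternative run, and leaving out each array in turn gave 0 to 0 called. The adjusted p of the gene nearest to a call ranged over the alternatives from 0.50 to 1.00 for siHOXA11-AS, from 0.14 to 1.00 for siHOXA11, from 0.44 to 0.99 for time and from 0.77 to 1.00 for shIBSP, and was 1.00 for siHOXB13. The median difference with siHOXA11 at 48 h was −0.65 as deposited and −0.25 with quantile normalization. The gap between the lowest array median of the 40 genes and the next was 0.75 as deposited, 0.42 with centred arrays and 0.22 with quantile normalization. The cause was not tested. Of the other main results, 110 values under alternatives stayed within their limits, and of the counts and single genes 228 did and 10 did not. For a median or gap the limit was a shift under 0.32, the median residual SD of the 40 genes. A count had to stay equal or within a set factor, and a single gene had to keep its sign. Many of the 110 are counts of 0 against 0, and 0.32 exceeds most of the medians, so a turned sign could pass. The tally is thus no measure of robustness. Scaling turned the sign of the median for siHOXA11-AS at 24 h, from 0.09 as deposited to −0.06 (centred) and −0.10 (quantile), and for shIBSP(2), from −0.09 to 0.12 and 0.16. For siHOXB13 at 24 h it was −0.09 with quantile normalization. At 24 h, 1 gene with siHOXA11-AS and 2 with siHOXA11 were at least 2-fold lower under either scaling, against 0 as deposited. Arrays of one transfection and of one time were set against each other by the additive fit. Without the treatment term the median for time was −0.35. Of the 40 genes, 5 were then lower at an unadjusted p under 0.05, against 3 with the term. Of all 16808 genes 564 were, against 553 with the term. No block on replicate numbers could be fitted, because the groups compared share fewer than 2 of them.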
